A study of Mus musculus with 6 samples.

Results

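Ltf, Lcn2, Muc1, C3, Sprr2d, Sprr2f, Padi1, Padi2, Padi4 and Greb1 are genes known in the uterus for their response to oestrogen, and their transcripts were followed here after a single dose of progesterone. The 10 genes were chosen by name, with earlier results of these data known. A gene counted as measured where the platform annotation gave at least 1 probe set with its symbol alone. That held for 9 of the 10, with 12 probe sets, among 18193 genes in all. C3, complement component 3, is not analysed here. Where a gene had several probe sets, the one with the highest mean level was its main one.

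The tissue was the whole uterus of female mice of mixed background that carried the floxed Gata2 allele (GATA2 f/f) in both groups, and the labels name no Cre recombinase. The mice lost their ovaries at 6 weeks of age and were 8 weeks old at collection. The first group received 1 mg of progesterone in 100 µl of sesame oil, the control group received sesame oil alone, and uteri were taken 6 h after the injection. Each group had 3 one-colour Affymetrix arrays, and the RNA was pooled from 3 mice. It is not stated whether every array held a separate pool, so a p-value here reflects only how much these arrays differ, part of which may be technical. No group received oestrogen, and the ovaries of both groups had been removed, so the comparison is of progesterone with its vehicle and not of oestrogen.

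Oestrogen acts through its receptor in the epithelium and stroma of the uterus, and drives the epithelium to grow and to secrete. Among the secreted products are lactoferrin (Ltf), an iron-binding protein, and lipocalin 2 (Lcn2), which binds bacterial siderophores. Progesterone opposes many of these effects and lowers the membrane mucin Muc1 before implantation in the mouse. Neutrophil granules also hold lactoferrin and lipocalin 2. In bulk tissue, fewer cells of a type and less RNA per cell cannot be told apart.

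The promoter windows of the genes that gave the clearest patterns are shown because the arrays bear on them as 2 sets. Ltf, Sprr2d and Sprr2f were highest on the same 2 arrays, and Padi1 and Greb1 followed the treatment. Lcn2 and Muc1 were also highest on those 2 arrays, but their windows are not shown. Each window runs from 250 bases before to 50 bases after the RefSeq start in GRCm38.p6, 5′ to 3′ on the gene's strand. Capitals mark the letters GGTCA or TGACC (the arms of an oestrogen response element) and TATAA or TTATA. The windows of Lcn2 and Muc1 held neither arm.
Ltf, chr9:111019042-111019341, plus strand: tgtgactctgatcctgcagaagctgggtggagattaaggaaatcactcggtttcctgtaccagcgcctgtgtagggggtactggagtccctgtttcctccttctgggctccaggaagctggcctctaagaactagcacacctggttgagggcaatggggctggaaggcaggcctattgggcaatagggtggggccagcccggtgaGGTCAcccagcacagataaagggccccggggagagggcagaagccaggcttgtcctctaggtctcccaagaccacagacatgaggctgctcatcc
Sprr2d, chr3:92338890-92339189, plus strand: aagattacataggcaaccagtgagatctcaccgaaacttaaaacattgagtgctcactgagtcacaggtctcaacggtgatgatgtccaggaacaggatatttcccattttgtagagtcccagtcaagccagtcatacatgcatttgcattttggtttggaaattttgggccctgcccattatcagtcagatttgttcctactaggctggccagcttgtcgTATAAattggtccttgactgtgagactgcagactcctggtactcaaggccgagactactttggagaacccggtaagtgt
Sprr2f, chr3:92364937-92365236, plus strand: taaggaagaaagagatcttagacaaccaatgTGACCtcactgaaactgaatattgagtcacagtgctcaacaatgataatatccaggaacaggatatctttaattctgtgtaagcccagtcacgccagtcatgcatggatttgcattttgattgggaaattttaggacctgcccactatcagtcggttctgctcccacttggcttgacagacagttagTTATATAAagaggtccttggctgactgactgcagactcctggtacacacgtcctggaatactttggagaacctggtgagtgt
Padi1, chr4:140845729-140846028, minus strand: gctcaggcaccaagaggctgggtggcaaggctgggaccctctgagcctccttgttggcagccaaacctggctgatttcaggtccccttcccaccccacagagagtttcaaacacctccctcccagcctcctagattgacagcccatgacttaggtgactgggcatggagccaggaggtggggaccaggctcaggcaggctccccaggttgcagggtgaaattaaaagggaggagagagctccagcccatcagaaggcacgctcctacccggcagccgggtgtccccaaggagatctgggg
Greb1, chr12:16800837-16801136, minus strand: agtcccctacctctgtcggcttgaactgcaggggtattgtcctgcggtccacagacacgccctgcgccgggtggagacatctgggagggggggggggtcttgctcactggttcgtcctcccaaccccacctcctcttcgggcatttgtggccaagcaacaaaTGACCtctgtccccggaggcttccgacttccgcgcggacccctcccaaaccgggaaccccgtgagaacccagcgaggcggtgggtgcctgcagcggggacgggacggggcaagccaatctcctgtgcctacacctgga

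All 10 genes had a window, and Greb1 had 2. No window of these genes held the full element, GGTCA and TGACC with 3 bases between, which was found in 0.07% of 32851 windows of all genes. At least 1 arm was found in the windows of Ltf, C3, Sprr2f and Padi4 and in both of Greb1, and in 40.5% of all windows, both strands searched. The window of C3 and the Greb1 window not shown above held 2 arms each. In Ltf the arm began 45 bases before the start. Neither the progesterone response element, AGAACA and TGTTCT with 3 bases between, nor either of its arms occurred in any window of the 10 genes. Those arms were found in 19.0% of all windows. The letters TATAA, on either strand, were found in the windows of Muc1, C3, Sprr2d, Sprr2f and Padi4, and in 24.9% of all windows. In both Sprr2d and Sprr2f they began 29 bases before the start. TTATA overlaps this match in Sprr2f. The Sprr2d and Sprr2f windows were identical at 229 of 313 aligned positions, or 73.2%. Such matches describe the letters only and do not show a bound site. Both full elements are rare over all windows (0.07% for oestrogen and 0.009% for progesterone), so their absence here was likely in any case. Inexact elements, and elements outside these windows, were not searched.

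Both replicate 3 arrays stood apart from the other arrays of their groups. Ltf, Lcn2, Sprr2d, Sprr2f and Muc1 were each more than 1 log2 unit above the mean of replicates 1 and 2 on replicate 3, in the progesterone group and in the oil group alike. That was so for 5 of the 9 measured genes, beside 1.13% of all genes (206 of 18193). The limit of 1 unit was chosen after the values were seen, and the genes were chosen with earlier results of these data known. These shares are therefore a description and not a test. Levels below are log2 values from RMA, which summarises the probes of a probe set after normalization, and the main probe sets of the 9 genes are therefore given on each array. The TrpnX controls, built against a bacterial transcript, lay between 2.87 and 3.34 and show the level of background. The array medians lay between 5.51 and 5.53.

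**Figure D1:**
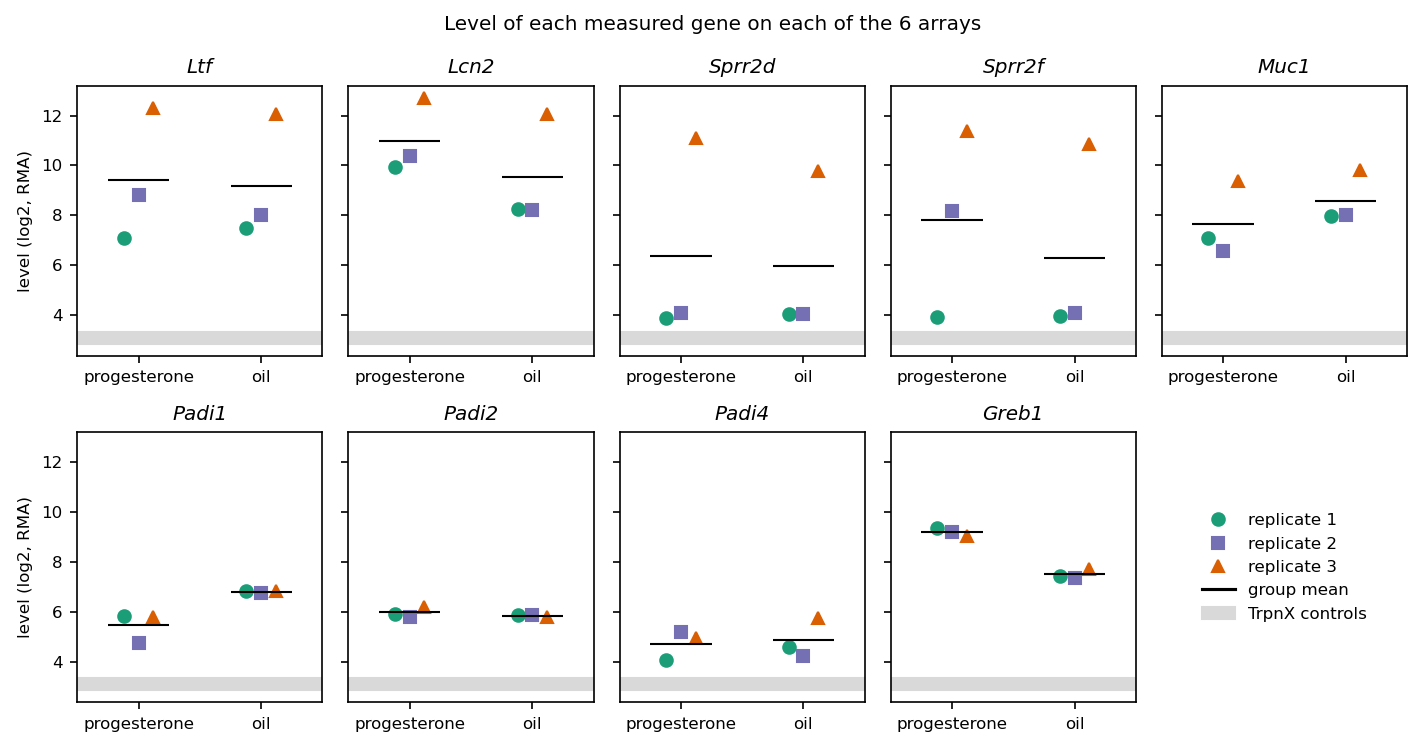
Levels (log2, vertical axis) of the 9 measured genes on the 3 progesterone and 3 oil arrays; each point is 1 array, shaped and coloured by replicate number, the line is the group mean and the grey band the range of the TrpnX controls. Greb1 lay higher and Padi1 lower on every progesterone array than on any oil array, while Ltf, Lcn2, Sprr2d, Sprr2f and Muc1 were highest on replicate 3 of each group.

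Of the 9 measured genes, 1 was higher after progesterone (Greb1), 1 was lower (Padi1) and 7 did not pass the test (limma, adjusted p under 0.05 over all genes). Over all genes the shares were 5.92% higher and 5.83% lower, 11.7% in either direction. The median log2 change of the 9 genes was 0.22, beside -0.02 over all genes. The groups' arrays did not overlap for 2 of the 9, Greb1 and Padi1, beside 30.4% of all genes. With the replicate number as a block, which removes what arrays of 1 number share, Lcn2 was also higher and Muc1 also lower, so that 2 were higher and 2 lower. The shares over all genes were then 7.6% higher and 8.49% lower. The labels do not say what a number shares, and the pairing rests on correlations in these data. With 9 genes, counts of 1 or 2 are too few to be read as shares above those of all genes.

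Greb1, a chromatin-bound cofactor of the oestrogen receptor in human breast cancer cells, was the gene with the clearest rise. Its levels were 9.37, 9.20 and 9.03 on progesterone replicates 1 to 3, against 7.43, 7.37 and 7.72 on oil replicates 1 to 3. Every progesterone array lay above every oil array. Replicate 3 was the lowest progesterone array and the highest oil array. The mean was 9.20 ± 0.17 with progesterone and 7.51 ± 0.187 with oil (SD, n = 3 arrays each, limma). The difference of 1.69 ± 0.135 (log2, SE) is 3.23-fold, with a limma adjusted p of 0.00145. Without both replicate 3 arrays it was 1.89 (limma adjusted p = 0.00587).

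The other probe sets of Greb1 differed in size. The one next in level measured 8.95, 8.78 and 8.85 with progesterone, against 7.38, 7.33 and 7.51 with oil. Its change of 1.45 passed when all probe sets were tested (limma adjusted p = 0.000911). The dimmest ranged from 3.68 to 4.14 with progesterone and from 3.15 to 3.58 with oil, close to the control probe sets, and its adjusted p was 0.168 in limma. The remaining one ranged from 5.19 to 5.27 with progesterone and from 5.00 to 5.25 with oil (limma adjusted p = 0.542). So 2 of the 4 probe sets of Greb1 rose, and the other two did not pass.

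The peptidylarginine deiminases turn arginine in proteins into citrulline, and the genes Padi1, Padi2 and Padi4 lie in 1 cluster on chromosome 4. They did not behave alike. Padi1, which in skin modifies structural proteins of the epidermis, was at 5.85, 4.76 and 5.79 on progesterone replicates 1 to 3. On oil replicates 1 to 3 it was at 6.84, 6.76 and 6.84. The oil arrays lay within 0.1 of each other, and all 3 progesterone arrays were below them, replicate 2 the furthest. Its change was -1.35 ± 0.277 (log2, SE), 2.54-fold lower after progesterone (limma adjusted p = 0.0242).

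Progesterone replicate 2 also had the lowest mean over 17 markers of uterine epithelium, 8.75, against 9.31 and 9.41 on the other progesterone arrays and between 9.24 and 9.38 on the oil arrays. Without that array the change of Padi1 was -0.99 and still passed (limma adjusted p = 0.0114). Its call ended without oil replicate 1 (limma adjusted p = 0.0829), oil replicate 2 (0.087) or oil replicate 3 (0.0622), and without both replicate 3 arrays (0.0714). The change itself stayed between -1.54 and -0.99 in the fits that left out 1 array.

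Padi2, the most widely expressed of the deiminases, was at 5.93, 5.81 and 6.20 with progesterone and at 5.88, 5.87 and 5.79 with oil. The groups overlapped, and the difference of 0.13 ± 0.119 (log2, SE) did not pass (limma adjusted p = 0.559). Padi4, which citrullinates histones and is abundant in neutrophils, was at 4.07, 5.18 and 4.94 with progesterone and at 4.59, 4.23 and 5.76 with oil. The groups overlapped here too, and the highest array was oil replicate 3. The change was -0.13 ± 0.435 (log2, SE, limma adjusted p = 0.903). Padi3 and Padi6 ranged from 3.38 to 4.09 with progesterone and from 3.61 to 4.22 with oil, and neither passed.

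Ltf and Lcn2 encode secreted proteins that withhold iron from bacteria. Ltf was at 7.11, 8.80 and 12.32 on progesterone replicates 1 to 3, against 7.50, 8.01 and 12.06 on oil replicates 1 to 3. The replicate 3 arrays were 4.37 above the other progesterone arrays and 4.31 above the other oil arrays on average, and the groups overlapped throughout. The change was 0.22 ± 1.58 (log2, SE, limma adjusted p = 0.956), and within replicate numbers 1, 2 and 3 it was -0.39, 0.79 and 0.26. Of all genes, 99.9% had a smaller SD within groups than Ltf, whose SD was 2.58.

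Lcn2 was also highest on replicate 3, but within each replicate number it was higher with progesterone. Its levels were 9.93, 10.37 and 12.69 with progesterone, against 8.27, 8.23 and 12.07 with oil. The groups overlapped only through oil replicate 3, and the differences within numbers were 1.66, 2.14 and 0.62. The change was 1.47, 2.78-fold, with an SE of 1.15 and an adjusted p of 0.495 in limma without the block. It lay between 0.63, without progesterone replicate 3, and 2.75, without oil replicate 3, in the fits that left out 1 array. With the replicate block, which rests on correlations in these data, the SE was 0.269 and Lcn2 was called higher (limma adjusted p = 0.0182). Without both replicate 3 arrays the change was 1.90 (limma adjusted p = 0.00988, 2 arrays in each group). That fit was chosen after the high levels on replicate 3 were seen, so it gives no separate support.

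Muc1, a large glycoprotein of the apical surface of the epithelium, went the other way. It was at 7.08, 6.56 and 9.39 on progesterone replicates 1 to 3 and at 7.96, 8.02 and 9.80 on oil replicates 1 to 3. It too was highest on replicate 3 in each group, and within each number the progesterone array was the lower one, with differences of -0.88, -1.46 and -0.41. The change was -0.92 with an SE of 0.795, 1.89-fold lower after progesterone, and did not pass without the block (limma adjusted p = 0.547). When 1 array was left out it lay between -1.77, without progesterone replicate 3, and -0.31, without oil replicate 3. With the replicate block, which rests on correlations in these data, the SE was 0.194 and Muc1 was called lower (limma adjusted p = 0.0272). Without both replicate 3 arrays the change was -1.17 (limma adjusted p = 0.0345), again in a fit chosen after the data were seen. The lower epithelial markers on progesterone replicate 2 apply here as well, and their part in the result of Muc1 was not tested.

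**Figure D2:**
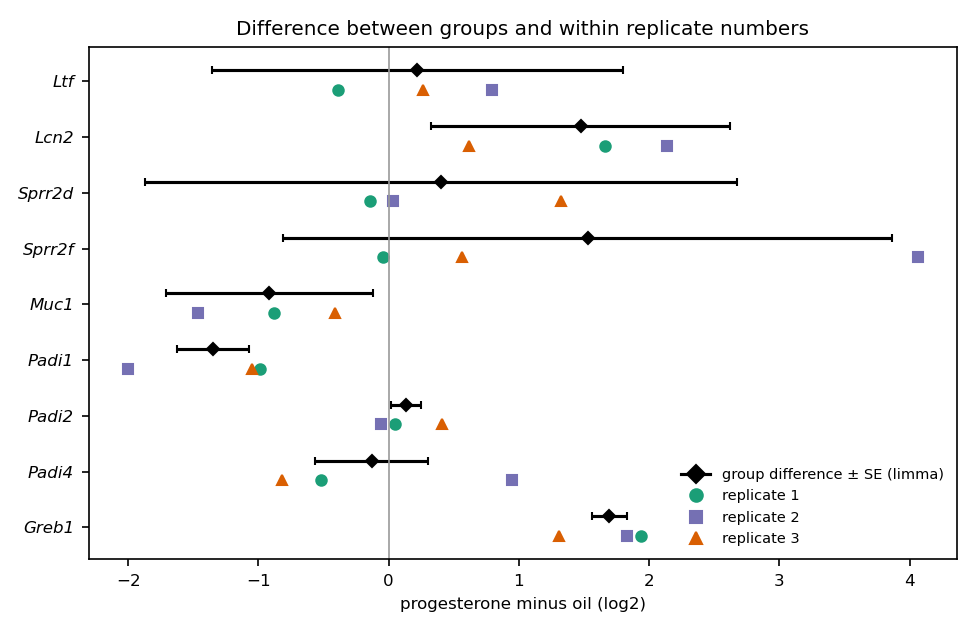
Difference between progesterone and oil (log2, horizontal axis) for the 9 measured genes. Diamonds with bars are the group difference and its SE from limma without a block, and the points are the differences between arrays of the same replicate number. All 3 points lay above 0 for Lcn2 and Greb1 and below 0 for Muc1 and Padi1.

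Sprr2d and Sprr2f encode small proline-rich proteins that are cross-linked into the cornified envelope of squamous cells, and mouse uterine epithelium also makes them under oestrogen. Sprr2d was at 3.90, 4.10 and 11.09 on progesterone replicates 1 to 3, against 4.04, 4.07 and 9.77 on oil replicates 1 to 3. It was thus little above the control probe sets on 4 arrays and high on both replicate 3 arrays. Its change was 0.40 ± 2.27 (log2, SE, limma adjusted p = 0.945). Sprr2f was at 3.94, 8.17 and 11.40 with progesterone and at 3.98, 4.11 and 10.84 with oil. Unlike Sprr2d, it was also well above the controls on progesterone replicate 2. Its change was 1.53 ± 2.34 (log2, SE, limma adjusted p = 0.764), and 0.56 between the replicate 3 arrays, 4.06 between the replicate 2 arrays and -0.04 between the replicate 1 arrays.

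The genes of this family resemble each other closely, so each probe set may also have bound transcripts of its relatives. Other measured members of the family differed far less between arrays, but Sprr2a, Sprr2b, Sprr2e and Sprr2g had no probe set with their symbol alone. Sprr2h ranged from 3.39 to 3.91 with progesterone and from 3.39 to 3.67 with oil, close to the control probe sets. Sprr2k ranged from 5.28 to 5.66 with progesterone and from 5.24 to 5.62 with oil. Of 14 measured SPRR and cornified envelope genes, Ppl (periplakin) rose by 1.19 and Evpl (envoplakin) fell by 0.67, 12 did not pass, and the median change was 0.03. Both calls held in 1 of the 6 fits without 1 array. Markers of stratified squamous epithelium averaged 4.64, 4.56 and 4.68 over 15 genes on the progesterone arrays and 4.50, 4.46 and 4.56 on the oil arrays. The basal keratin Krt5 reached no more than 5.30 with progesterone and 4.96 with oil, and Krt14 lay between 3.70 and 4.06 over the 6 arrays. The mean of the list was highest on replicate 3 of each group, by a far smaller margin than Sprr2d and Sprr2f. Trp63, a transcription factor of squamous and basal cells, was the marker of that list that rose, by 2.09 (limma adjusted p = 0.0106, and 0.0542 without oil replicate 2).

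**Figure D3:**
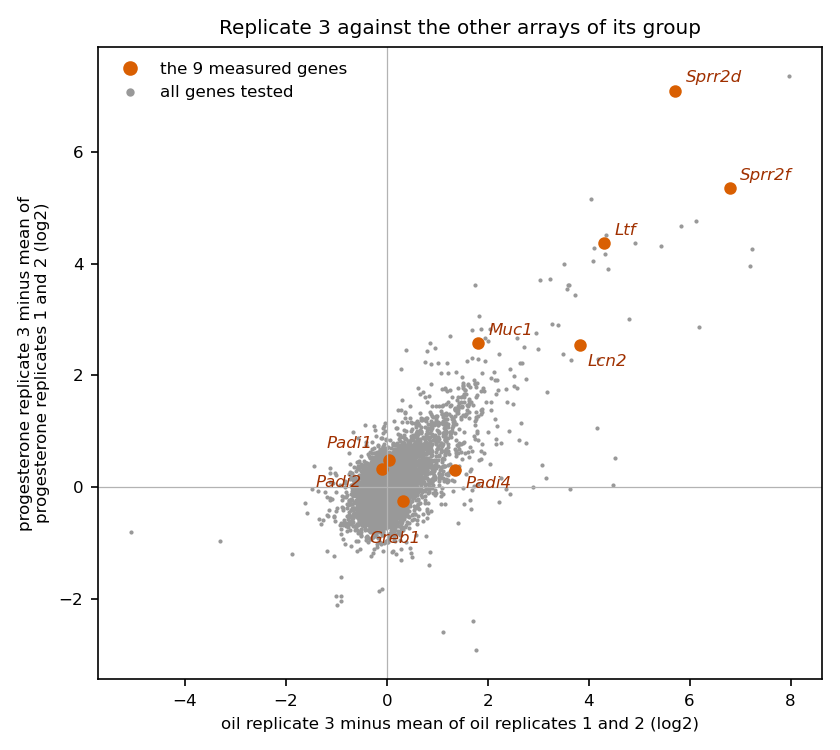
For every gene tested (grey) and the 9 measured genes (orange), replicate 3 minus the mean of replicates 1 and 2 (log2) in the progesterone group (vertical axis) and in the oil group (horizontal axis). Sprr2d, Sprr2f, Ltf, Lcn2 and Muc1 lay far from 0 on both axes, whereas Greb1, Padi1 and Padi2 lay within 0.5 of 0 on both.

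The levels of Ltf, Sprr2d and Sprr2f, like those of Lcn2 and Muc1, were each highest on the 2 replicate 3 arrays. Pearson's r over the 6 arrays was 0.97 between Ltf and Sprr2d, 0.96 between Ltf and Sprr2f and 0.89 between Ltf and Lcn2. These values describe arrays that fall into separate clusters. Over the 4 arrays without replicate 3, r was 0.86 between Ltf and Sprr2d, 0.88 between Ltf and Sprr2f and 0.30 between Ltf and Lcn2, with Sprr2d close to the control probe sets on all 4. Ltf and Greb1 had an r of 0.05, and Padi1 and Greb1 one of -0.87. Among genes at or above the median level, those most like Ltf were Cp, the plasma ferroxidase ceruloplasmin (r = 0.996), Acsl5 (0.995) and Pclaf (0.993), over 6 arrays. Cp was at 6.89, 8.65 and 11.50 with progesterone, against 7.49, 7.97 and 10.97 with oil, so it followed Ltf on each array.

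The gene most like Sprr2f was Slfn4 (r = 0.999), at 5.12, 8.38 and 11.42 with progesterone and 5.02, 5.19 and 10.94 with oil. Sulf1 (0.994) and Steap4 (0.994) followed. Sprr2d was most like Mmp7, a matrix metalloproteinase of epithelia (r = 0.993), then Lmnb1 (0.983) and Cfi (0.981). Over the 4 arrays without replicate 3, r was -0.43 for Mmp7 and 0.48 for Cfi, so the likeness of both rested on the replicate 3 arrays. Lcn2 was most like Ppp2cb (0.995), Acod1 (0.994) and Itga6 (0.986). Acod1, which makes itaconate, was at 6.75, 7.87 and 10.31 with progesterone, against 4.47, 4.74 and 9.40 with oil, and like Lcn2 was higher with progesterone within each number. Ppp2cb moved little, between 9.12 and 9.26 with progesterone and between 9.06 and 9.23 with oil. Muc1 was most like Tbca (0.991), Stap2 (0.99) and Ldhb (0.986).

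Greb1 was most like Slc25a33, Mthfd2 and Acot7 (r = 0.999, 0.998 and 0.998). Slc25a33, a mitochondrial nucleotide carrier, was at 9.97, 9.88 and 9.59 with progesterone, against 7.48, 7.43 and 7.83 with oil, with replicate 3 of each group nearest to the opposite group, as for Greb1. Padi1 was most like 2310067E19Rik (0.997), Kat2b (0.993) and Golgb1 (0.988). Padi2 was most like Zgpat (0.96), Rps18 (0.958) and Ndufb8 (0.944). Without replicate 3 the r of Zgpat was 0.41, that of Rps18 0.34 and that of Ndufb8 0.79. Padi4 was most like Rp2 (0.963), Mmp14 (0.955) and Tgfbr1 (0.952). The most like of so many genes reach a high r with 6 arrays in any case, so these names are a description.

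Among the other oestrogen-responsive genes of the uterus, 44 of 45 listed were measured. Of these 44, 4 were higher and 5 lower, while 35 did not pass. Over all genes 5.92% were higher and 5.83% lower, and a difference of this list from all genes was not tested. The median change of the list was -0.02, equal to that of all genes. The secreted growth factor Igf1 rose by 1.98 and the chaperone Hspa5 by 1.07. The Wnt ligand Wnt7a fell by 2.10, and the progesterone receptor Pgr fell by 1.06. The oestrogen receptor Esr1 was at 12.91, 12.71 and 12.84 with progesterone and at 13.32, 13.29 and 13.21 with oil, and fell by 0.45 (limma adjusted p = 0.0243). Named after their values were seen, Odc1 and Ctsd completed the higher genes and Fzd10 and Inhbb the lower ones. The calls of Igf1, Hspa5, Wnt7a, Pgr and Fzd10 held in all 6 fits without 1 array, those of Esr1, Odc1 and Ctsd in 1 and that of Inhbb in 0. The replicate block gave 9 higher and 8 lower genes, beside 7.6% higher and 8.49% lower over all genes. On this list Clu and Gjb2, 2 of 44, were more than 1 unit higher on replicate 3 in both groups. The same held for 5 of the 9 genes above and for 1.13% of all genes.

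High levels on both replicate 3 arrays were also present in other secretory and defence genes, named after their values were seen. Of 9 measured mucins 0 passed in limma, with or without the block, and 0 had an unadjusted p under 0.05. Muc4 and Muc20, 2 of the 9, were more than 1 unit higher on replicate 3 in both groups. The share over all genes was 1.13%. Muc4, a membrane mucin, was at 4.68, 4.26 and 8.52 with progesterone and at 4.58, 5.08 and 8.91 with oil. Of 20 measured complement genes, 6 were more than 1 unit higher on replicate 3 in both groups, namely the complement factors Cfb and Cfi, the receptor C5ar1 and the C1q chains C1qa, C1qb and C1qc. C1qa was nearly as high on progesterone replicate 2, at 7.38, 9.35 and 9.84 with progesterone, against 7.66, 8.70 and 9.45 with oil, and C1qb and C1qc followed it. Cfb was at 4.50, 6.67 and 9.75 with progesterone, against 4.68, 4.92 and 9.13 with oil, highest on the replicate 3 arrays and then on progesterone replicate 2, as was Sprr2f. After progesterone 0 complement genes were higher in limma (0 at an unadjusted p under 0.05) and 2 were lower, 4 with the block. Over all genes 5.83% were lower, and 8.49% with the block. Cd55 fell by 0.77 and Cd59a fell by 0.53, both membrane inhibitors of complement. The call of Cd55 held in 5 of the 6 fits without 1 array, ending without oil replicate 2, and that of Cd59a held in 1.

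Of 23 measured antimicrobial and epithelial defence genes, 3 rose, 0 fell (2 at an unadjusted p under 0.05 in limma) and 20 did not pass, with a median change of 0.25. With the block 4 were higher and 1 lower. Over all genes 5.92% were higher, and 7.6% with the block. Wfdc15b rose by 2.04 and Wfdc12 by 0.89, both of the whey acidic protein family of protease inhibitors. The defensin Defb1 rose by 1.57, a call that ended without progesterone replicate 2, oil replicate 1 or oil replicate 2. In this list 5 genes were more than 1 unit higher on replicate 3 in both groups, namely Wfdc18, Pigr, Saa3, Pglyrp1 and Sftpd. The share over all genes was 1.13%. Pigr, which carries immunoglobulin A across the epithelium, was at 7.46, 8.85 and 10.44 with progesterone and at 6.71, 6.43 and 10.75 with oil.

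Neutrophil markers moved with some of these genes. The 21 measured markers averaged 4.08, 6.36 and 6.40 on progesterone replicates 1 to 3 and 4.23, 4.21 and 6.30 on oil replicates 1 to 3. Their summed level ran from 85.7 to 134.4 in the progesterone group and from 88.5 to 132.4 in the oil group, and 0 of the 21 passed in limma without the block (0 at an unadjusted p under 0.05), 2 being higher with it. Of the 21 markers, 9 were more than 1 unit higher on replicate 3 in both groups, beside 1.13% of all genes. The same held for 5 of the 9 genes followed here, with a limit chosen after the values were seen. The 9 markers were S100a8, S100a9, Csf3r, Il1b, Clec4d, Clec4e, Fpr2, Cxcr2 and Pglyrp1. S100a8, an abundant neutrophil protein, was at 5.01, 12.02 and 12.48 with progesterone and at 4.92, 4.34 and 11.82 with oil. S100a9, its partner, was at 4.19, 11.54 and 12.12 with progesterone and at 4.17, 4.49 and 11.57 with oil. Both were high on progesterone replicate 2, an array on which Sprr2d was at 4.10, Ltf at 8.80 and Sprr2f at 8.17, as well as on the replicate 3 arrays.

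Granule genes that neutrophils make while they mature had another order in the progesterone group. Ngp was at 3.91, 9.05 and 4.09 with progesterone and at 4.04, 3.56 and 5.51 with oil. Camp was at 4.27, 7.88 and 4.69 with progesterone and at 4.61, 4.12 and 5.20 with oil. Mpo, myeloperoxidase, reached 5.94 on progesterone replicate 2 and lay between 3.71 and 3.87 on the other progesterone arrays and between 3.54 and 3.93 on the oil arrays. In the progesterone group Ngp, Camp and Mpo were therefore highest on replicate 2, where Ltf and Lcn2 were intermediate. In the oil group Ngp and Camp were highest on replicate 3, as were Ltf and Lcn2, while Mpo was highest on replicate 1. Mmp8 was at 3.61, 5.46 and 4.86 with progesterone and 3.46, 3.68 and 4.47 with oil, and Mmp9 at 6.13, 7.22 and 7.46 with progesterone and 6.59, 7.16 and 7.94 with oil. Csf3r, the receptor of the granulocyte growth factor, was at 4.34, 5.40 and 7.54 with progesterone and at 4.08, 4.70 and 6.97 with oil, highest on replicate 3 in each group. Il1b was at 4.32, 5.57 and 9.25 with progesterone and at 4.05, 4.34 and 9.63 with oil. It too was highest on replicate 3, as were Clec4d, Clec4e, Fpr2, Cxcr2 and Pglyrp1, all named after their values were seen. Ly6g and Retnlg were not analysed here. The part of neutrophils in the levels of Ltf, Lcn2 and Padi4 was not tested.

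**Figure D4:**
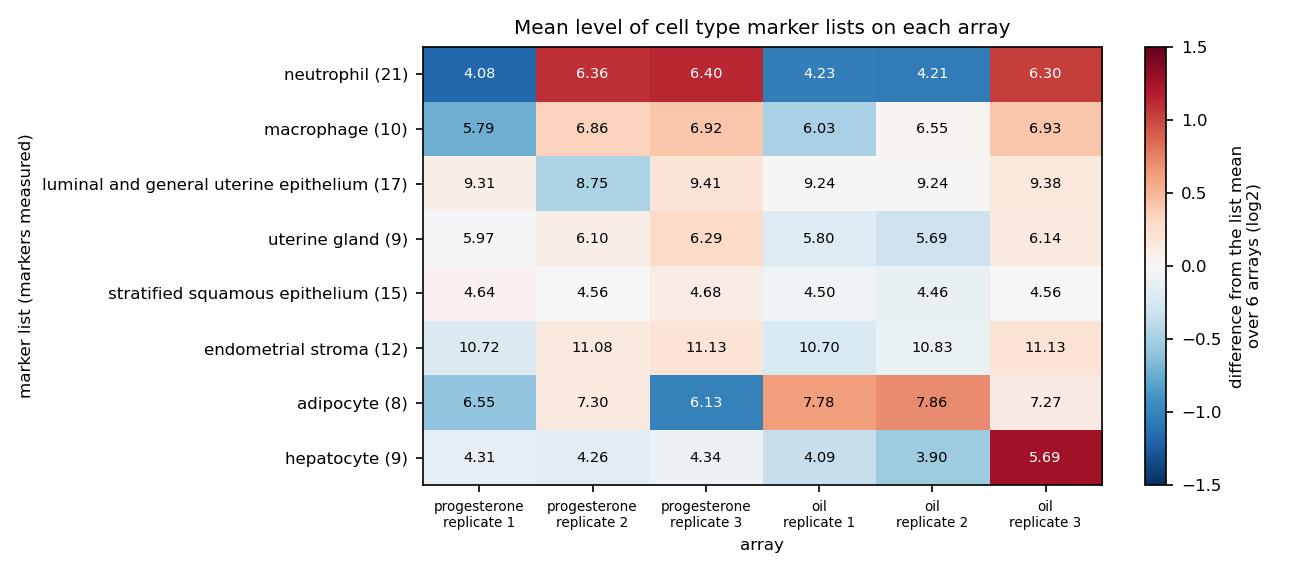
Mean level (log2, number in each cell) of 8 lists of cell type markers on the 6 arrays, coloured by the difference from the list's mean over the arrays. The neutrophil markers were between 6.30 and 6.40 on both replicate 3 arrays and progesterone replicate 2, and between 4.08 and 4.23 on the other 3 arrays.

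Epithelial markers were likewise highest on replicate 3 of each group, by far less than Sprr2d or Ltf. The 17 markers averaged 9.41 on progesterone replicate 3 and 9.38 on oil replicate 3, against 9.31 on progesterone replicate 1 and 9.24 on oil replicates 1 and 2. Of these markers Cldn3 rose by 1.15 and Wnt7a fell. Gland markers averaged 6.29 and 6.14 on progesterone and oil replicate 3, against 5.97 and 6.10 on the other progesterone arrays and 5.80 and 5.69 on the other oil arrays. In that list Wfdc3 rose by 1.45. The 10 measured macrophage markers averaged 5.79, 6.86 and 6.92 with progesterone and 6.03, 6.55 and 6.93 with oil, and 0 passed in limma with or without the block (0 at an unadjusted p under 0.05). Hepatocyte markers averaged 5.69 on oil replicate 3 and between 3.90 and 4.34 on the other 5 arrays. Of the hepatocyte markers Ttr, the carrier of retinol and thyroxine, rose by 2.61. Its call ended when any 1 array other than oil replicate 3 was left out. Adipocyte markers averaged 6.55, 7.30 and 6.13 with progesterone and 7.78, 7.86 and 7.27 with oil, and 0 of the 8 passed in limma without the block (6 lower at an unadjusted p under 0.05), while 6 were lower with it. The part of these cell types in the results was not tested.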

How the data were processed

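Per the labels, biotinylated cRNA from total RNA of the uterus was hybridised to one-colour arrays. The authors deposited log2 expression values for 45101 probe sets, and per the submitters' processing notes the authors used Partek 6.6 and RMA; further settings are not given in the sources used here. RMA makes the arrays' distributions alike, so changes are relative to the rest of the array. The number of arrays limits precision.

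Gene names came from the platform annotation: 34945 probe sets had 1 symbol, 932 several and 9160 none here, and 64 were controls. Probe sets with several symbols, some of the Sprr2 family among them, were not named. Groups came from the sample titles. Testing used limma (version 3.58.1, under R 4.3.3) with lmFit and eBayes, without a block (two-sided, Benjamini-Hochberg over 18193 genes, threshold 0.05). The procedure was tested on simulated data.

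The 10 genes and all lists were chosen with earlier results of these data known. The naming rule took all 10 genes, Pgr, Esr1, neutrophil genes in any case and the 3 genes most like each of the 10. From each gene list it took up to 4 genes past the threshold by size of change, or the one with the largest change where none passed. From each list of cell type markers it took up to 4 past the threshold. Those of endometrial stroma (Hoxa11, Hoxa10, Hand2 and Lum) and of endothelium (Cldn5) are not described here. Krt5, Krt14 and the genes named after their values were seen lie outside the rule. Deviations from the group means correlated at 0.523, 0.141 and 0.636 between same-numbered arrays across genes, each over 0.1, and on that ground same-numbered arrays were treated as pairs where a block is named; the labels do not say what a number shares. Oil replicate 2 correlated better with progesterone replicate 1 (0.322). Promoter windows are from RefSeq (GRCm38.p6). The planned comparison of proteins was not run. Alternatives were quantile normalization again, centring on array medians, an offset of 32, leaving out the lowest 25% or 50% of genes, the mean of probe sets, trended and robust eBayes, a replicate block, each array left out and a minimum of 1.5-fold. Leaving out both replicate 3 arrays, also with progesterone replicate 2, was chosen after seeing the data.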

Additional observations from a re-analysis of the deposited data

How the results depend on the processing

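Of the 9 genes, Greb1 kept its direction and its call in every alternative except the last one below, with a log2 change between 0.93 (mean of its probe sets) and 1.89. Padi1 kept its direction in all, and its call ended in the fits named above and in the last one below. The count of the 9 genes called higher was 1 in each fit without 1 array, and the count called lower ranged from 0 to 1. The replicate block gave 2 higher and 2 lower, the added calls being Lcn2 and Muc1, and the block changed no other call among the 9. Without the lowest 50% of genes 0 were lower, since Padi1 was then left out. In the fit without both replicate 3 arrays, chosen after the data were seen, 2 were higher, Lcn2 and Greb1, and 1 was lower, Muc1.

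Of the other oestrogen-responsive genes, 2 to 4 were higher and 3 to 5 lower in the fits without 1 array, the low counts of higher genes being those without oil replicate 1, oil replicate 2 or progesterone replicate 3, and of lower genes those without oil replicate 1 or 2. The replicate block gave 9 higher and 8 lower genes. The count of lower genes was 3 after quantile normalization again and 2 with the mean of probe sets. Leaving out both replicate 3 arrays and progesterone replicate 2 left 1 progesterone array, assumed to vary like the oil arrays. The counts were then 0 in both lists and both directions, as over all 18193 genes in limma, where 3379 had an unadjusted p under 0.05, so that fit says nothing about single calls.

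The direction of the genes that varied within groups depended on the arrays used. Without 1 array, the log2 change lay between -1.24 and 1.66 for Ltf, -1.96 and 2.31 for Sprr2d, -0.26 and 3.79 for Sprr2f, and -0.45 and 0.32 for Padi4. Without both replicate 3 arrays it was -0.055 for Sprr2d, -0.005 for Padi2 and 0.215 for Padi4. Without progesterone replicate 2 as well, it was -0.645 for Ltf, -0.155 for Sprr2d and -0.105 for Sprr2f. None of these passed. Levels near the TrpnX controls, such as those of Sprr2d on 4 arrays, set no exact size of difference.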
